A study of Mus musculus with 9 samples.

Results

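The vascular endothelial growth factor (VEGF) system was followed in bulk RNA-Seq of mouse retina through 9 genes, selected from the deposited gene table by symbol. The 4 ligands are *Vegfa*, *Vegfb*, *Vegfc*, and *Pgf*, the 3 receptor tyrosine kinases are *Flt1*, *Kdr*, and *Flt4*, and the 2 coreceptors are *Nrp1* and *Nrp2*. All 9 were found once among 54532 genes, and all 9 passed the filter on low counts. The retinas came from 9 wild-type C57BL/6 mice, 3 per group, all at P17. Control mice were raised in room air, and their labels list DMSO. OIR mice went through oxygen-induced retinopathy, in which pups spend several days in hyperoxia and the return to room air makes the retina hypoxic. At P12 these mice had 1 intraocular injection of DMSO, the vehicle. Treated OIR mice received 32-134D, a small molecule that inhibits HIF-1 and HIF-2 (hypoxia-inducible factors), by the same route and on the same day, at a dose given as 70 ng in one label and 70 ng/μl in another. Each mouse carries its label number (control 1, 6, 7; OIR 3, 5, 6; treated OIR 2, 5, 10), and the numbers do not pair mice across groups. The OIR model is an acute ischemia of young animals without diabetes.

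VEGF-A is the main driver of vessel growth and leakage, and in the hypoxic retina it is made largely by Müller glia and other neural cells under the control of HIFs. It binds VEGFR1, encoded by *Flt1*, and VEGFR2, encoded by *Kdr*, which carries most of the mitogenic signal in endothelial cells. Among the receptor tyrosine kinases, VEGF-B and PlGF, the product of *Pgf*, bind only VEGFR1, while VEGF-C binds VEGFR3, encoded by *Flt4*, and VEGFR2. Neuropilins lack kinase activity and present VEGF to the receptors, and they also bind class 3 semaphorins. Gene counts do not separate splice forms, so the heparin-binding and freely diffusing forms of VEGF-A, and the membrane and soluble forms of VEGFR1, are each counted together here.

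Total counts per mouse ranged from 16028731 to 27213184, and the 9 genes had between 26 and 7285 counts in each mouse. Rod photoreceptor markers were abundant in all groups, with a summed level of 36131 to 67985 CPM (counts scaled to library size) over 8 genes. Treated OIR mouse 2 stood apart from the rest, since crystallin genes, which are the main genes of the lens, held 15.8% of its counts, compared with at most 0.186% in any other mouse. For this reason results that rest on this mouse are given with and without it. By *Xist* counts the mice were of both sexes in every group.

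The promoters of *Vegfa*, *Vegfb*, and *Kdr* are shown because the clearest differences below were in these 3 genes and because 32-134D targets factors that bind a short core in DNA. The sequences are the 250 bases before the RefSeq start on GRCm38.p6, written 5′ to 3′ on the strand of the gene, and capitals mark the HIF core, searched as ACGTG or GCGTG on both strands (CACGT or CACGC on the reverse strand, with overlapping matches counted).
Vegfa, chr17:46032378-46032627, minus strand: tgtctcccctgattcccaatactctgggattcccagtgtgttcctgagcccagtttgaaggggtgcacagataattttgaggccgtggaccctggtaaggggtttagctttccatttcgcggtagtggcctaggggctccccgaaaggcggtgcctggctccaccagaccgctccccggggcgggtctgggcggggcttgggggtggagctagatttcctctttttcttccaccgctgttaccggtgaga
Vegfb, chr19:6987652-6987901, minus strand: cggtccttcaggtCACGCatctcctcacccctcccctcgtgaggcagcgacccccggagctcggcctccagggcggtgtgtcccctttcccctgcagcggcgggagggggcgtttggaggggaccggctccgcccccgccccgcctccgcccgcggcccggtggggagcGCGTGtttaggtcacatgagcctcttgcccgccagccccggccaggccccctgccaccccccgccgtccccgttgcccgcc
Kdr, chr5:75978456-75978705, minus strand: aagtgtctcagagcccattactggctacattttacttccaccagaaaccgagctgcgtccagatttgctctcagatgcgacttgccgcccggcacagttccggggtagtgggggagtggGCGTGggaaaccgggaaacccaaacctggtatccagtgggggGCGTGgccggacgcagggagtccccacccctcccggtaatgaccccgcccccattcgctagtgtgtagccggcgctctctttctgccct
The window of *Vegfa* held no match, and its well-known hypoxia response element lies farther upstream, outside this window. The windows of *Vegfb* and *Kdr* held 2 matches each, in *Vegfb* starting 237 and 81 bases and in *Kdr* 131 and 89 bases before the gene start. Over the 9 genes, 7 of 11 windows held a match, including a second *Vegfa* window at an internal start with 2 matches. Of 32851 windows of the same length over all genes, 38.6% held at least 1 match, so that the core is common and its presence describes the sequence alone.

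Levels of different genes were compared per length, as RPKM, the TMM-scaled CPM divided by the length of the gene in kilobases. In control retina the most abundant of the 9 was *Vegfb*, at 49.7 ± 5.77 (SD, n = 3), followed by *Vegfa* at 28.2 ± 1.76 (SD, n = 3), *Kdr* at 12.2 ± 1.40 (SD, n = 3), and *Flt1* at 5.37 ± 1.14 (SD, n = 3). The ranges of these neighbours did not overlap. The other 5 genes lay at mean levels from 0.914 for *Pgf* to 2.11 for *Nrp2*, and of their neighbours in this order only *Nrp1* and *Flt4* did not overlap. In OIR mice the order of the leading genes changed, with *Vegfa* first at 54.0 ± 2.95 (SD, n = 3), and with *Vegfb* at 27.6 ± 1.87 and *Kdr* at 26.2 ± 4.30 (SD, n = 3 each) overlapping one another. In treated OIR mice *Vegfa* was again first, at 75.0 ± 28.5 (SD, n = 3), where the spread came from mouse 2 at 108, while mice 5 and 10 had 58.8 and 58.3. *Vegfc* had the lowest mean of the 9 in both OIR groups, at 1.01 and 1.10. In treated OIR mice this rested on mouse 2, with 0.673 for *Vegfc* and 11.6 for *Pgf*, since *Pgf* was the lower of the pair in mice 5 and 10, at 0.824 and 1.20 compared with 1.25 and 1.38.

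**Figure D1:**
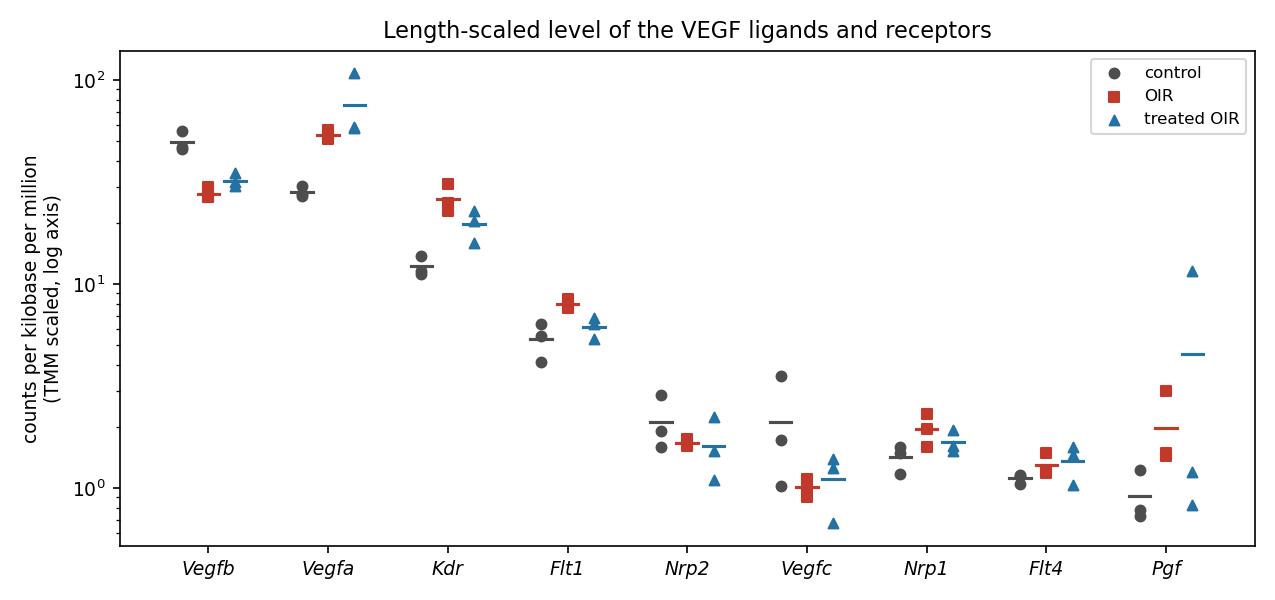
Length-scaled level (TMM-scaled RPKM, log axis) of each gene, with 1 point per mouse, short lines at group means, and genes ordered by their control mean. *Vegfb* was highest in control mice at a mean of 49.7, and *Vegfa* was highest in OIR and treated OIR mice at 54.0 and 75.0.

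The first question was how the VEGF genes differ between ischemic and normal retina. Between OIR and control mice 2 of the 9 genes passed an adjusted p below 0.05 (edgeR, Benjamini-Hochberg over all 17540 genes tested), *Kdr* upward and *Vegfb* downward. Of all genes tested, 0.941% passed, 0.433% upward and 0.507% downward. Both calls kept their direction in all 20 alternatives but were lost, with an adjusted p of up to 0.163, with sex as a covariate and in each edgeR fit that left out control mouse 1, 6, or 7, OIR mouse 3, 5, or 6, or treated OIR mouse 5, in which no gene of the whole table passed. The values of the 2 groups did not overlap for 6 of the 9 genes, 5 higher and 1 lower in OIR mice, compared with 33% of all genes tested, 15.9% higher and 17.2% lower. The median log2 fold change was 0.45 over the 9 genes and 0.03 over all genes. In bulk tissue a change in the number of cells of a type and a change in RNA per cell cannot be told apart.

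*Vegfa* (ENSMUSG00000023951, chromosome 17, 46016993 to 46032369 on GRCm38, protein coding) was measured at a log2 CPM of 6.88, 7.02, and 6.85 in controls (mice 1, 6, and 7, the order used throughout). OIR mice 3, 5, and 6 had 7.85, 7.94, and 7.78. Every OIR mouse was above every control mouse, and the gap between the groups was several times the spread within them. This came to a log2 fold change of 0.94 (SE, its standard error, = 0.22), or 1.92-fold, with an adjusted p of 0.0676 by edgeR, so that it did not pass in the fit of all 9 mice. Over 20 alternatives the adjusted p lay between 1.7e-13, with DESeq2 on the 2 groups, and 0.205, and 6 of them were below 0.05. DESeq2 called 15.6% and limma-voom 13.1% of all genes in this comparison. Without treated OIR mouse 2, which belongs to neither group but enters the shared estimate of spread, the log2 fold change was 0.92 with an adjusted p of 0.00361 by edgeR. In that fit many more genes of the whole table passed than in the main fit, a number given below.

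*Vegfb* (ENSMUSG00000024962, chromosome 19, 6982473 to 6987651), whose product binds VEGFR1 and is known for roles in vessel survival and lipid handling, moved the other way. Its log2 CPM was 6.20, 6.25, and 6.50 in controls, and 5.42, 5.58, and 5.42 after OIR, with no overlap and all 3 OIR mice lower. It fell by 0.85 on the log2 scale (SE = 0.11, adjusted p = 0.0407 by edgeR), and ranked 11 of 17540 genes by p. Base composition also moved with the groups. The longest *Vegfb* transcript is 62.6% G and C. When protein-coding genes were divided into 5 equal bins of G and C content, *Vegfb* lay in the highest bin, whose median log2 fold change was -0.11, compared with 0.12 in the lowest. By length *Vegfb* lay in the lowest of 5 bins, with a median of -0.09, while *Kdr* and *Flt1* lay in the highest, with a median of 0.11. The part of composition and length in the fall of *Vegfb* was not tested.

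*Pgf* (ENSMUSG00000004791, chromosome 12, 85166635 to 85177790), encoding a growth factor that is low in healthy adult tissue and is known to act in pathological vessel growth, had a log2 CPM of 1.25, 1.87, and 1.16 in controls, and 2.15, 2.09, and 3.14 after OIR. All 3 OIR mice lay above the controls, with mouse 6 highest. Their mean difference of 1.11 (SE = 0.89, adjusted p = 0.482 by edgeR) has a 95% interval from -0.89 to 3.11, which includes 0, and was 0.67 without OIR mouse 6. The counts behind these values were low, from 33 to 194 per mouse.

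*Vegfc* (ENSMUSG00000031520, chromosome 8, 54077606 to 54187096), the lymphangiogenic ligand, had a log2 CPM of 3.14, 2.11, and 1.39 in controls, and 1.50, 1.36, and 1.21 after OIR, and the groups overlapped. Control mouse 1 alone was far above the others, with 249 counts. The difference of -1.07 on the log2 scale (SE = 0.45, adjusted p = 0.193 by edgeR) was -0.45 without that mouse. *Vegfd*, the other ligand of VEGFR3, was not among the 9 genes, and with 1 to 24 counts per mouse it did not pass the filter in the fit of all 9 mice.

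**Figure D2:**
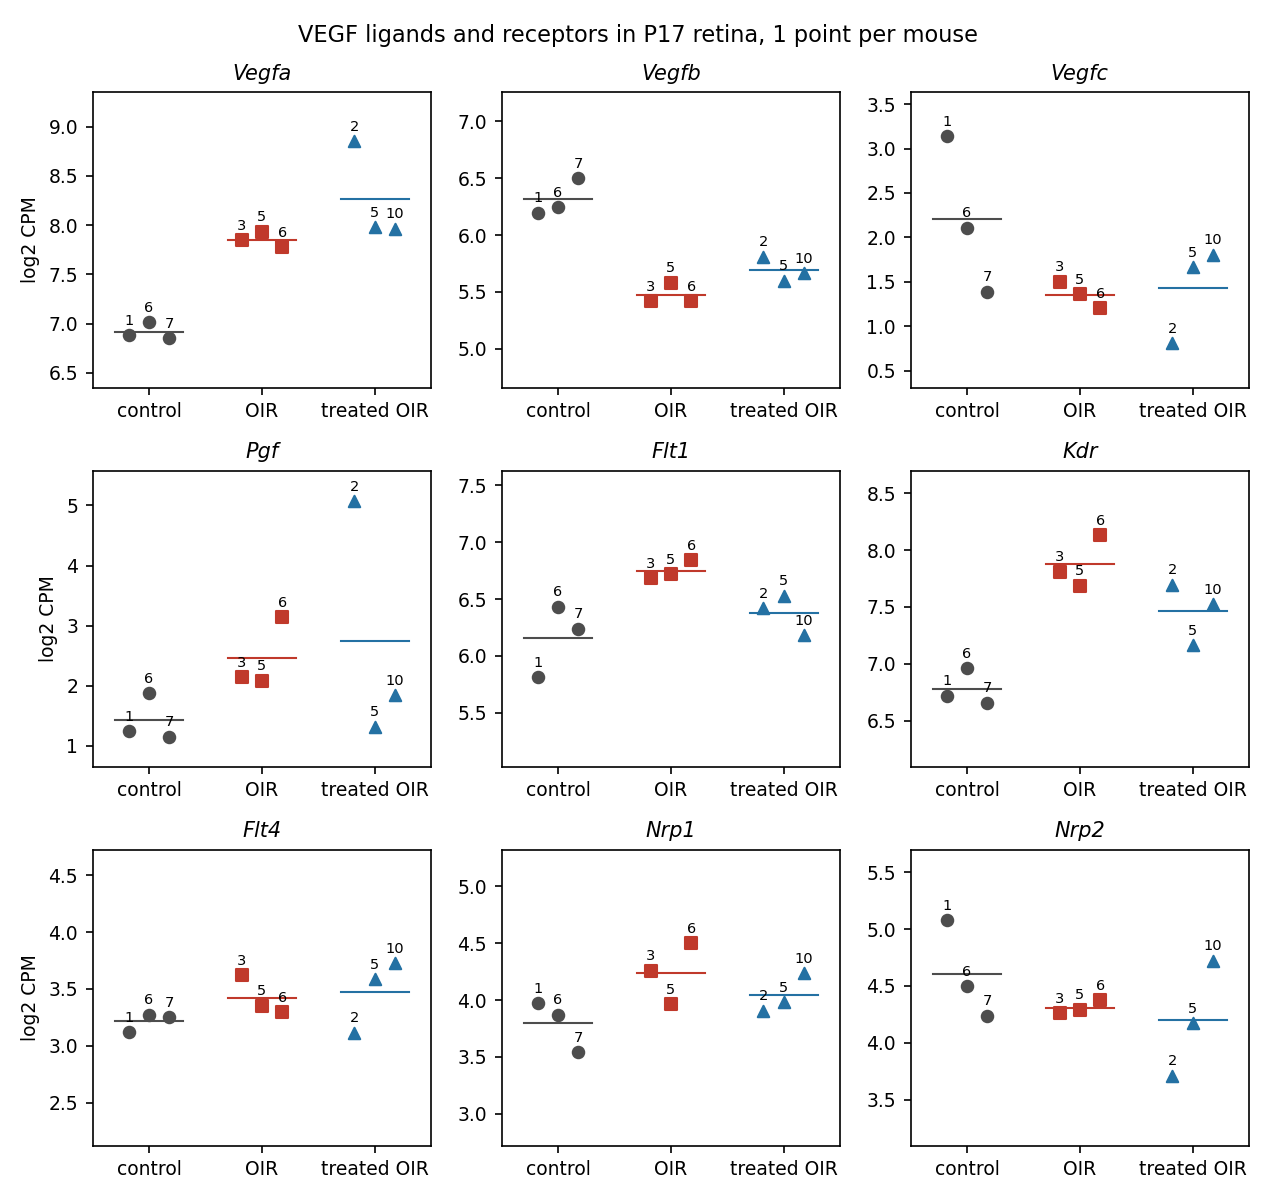
Log2 CPM of each of the 9 genes, with 1 point per mouse marked by its label number and lines at group means (3 mice per group). OIR mice lie above the controls for *Vegfa* and *Kdr* and below them for *Vegfb*, and treated OIR mouse 2 is far above all other mice for *Pgf*, at 5.07.

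*Kdr* (ENSMUSG00000062960, chromosome 5, 75932827 to 75978458), the gene of VEGFR2, had a log2 CPM of 6.72, 6.96, and 6.66 in controls, and 7.81, 7.69, and 8.13 after OIR. The groups did not overlap. The rise of 1.10 (SE = 0.17, adjusted p = 0.0407 by edgeR) was 2.15-fold, and it was the one gene of the 9 that also passed with an added limit of an absolute log2 fold change above 1, a limit that *Vegfb* missed and that 0.302% of all genes passed. *Flt1* (ENSMUSG00000029648, chromosome 5, 147561604 to 147726011), the gene of VEGFR1, which can act as a decoy for VEGF-A, had 5.81, 6.43, and 6.24 in controls, and 6.68, 6.72, and 6.84 after OIR. These did not overlap either, and differed by 0.57 (SE = 0.16, adjusted p = 0.0910 by edgeR). Without treated OIR mouse 2 the adjusted p for *Flt1* was 0.0472 in edgeR, in a fit where many more genes of the whole table passed. *Flt4* (ENSMUSG00000020357, chromosome 11, 49609263 to 49652739), the gene of VEGFR3, which marks lymphatic endothelium and sprouting tip cells, had 3.12, 3.27, and 3.25 in controls, and 3.62, 3.35, and 3.30 after OIR. The groups did not overlap by a margin of hundredths of a log2 unit, and the difference of 0.22 was about as large as its error (SE = 0.19, adjusted p = 0.534 by edgeR).

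The receptor levels were set beside general endothelial markers mouse by mouse. All 15 markers of endothelial cells, among them *Pecam1*, *Cdh5*, *Cldn5*, and *Tie1*, were detected in every group and none was at 0 throughout a group. Their summed level spanned 206 to 241 CPM in controls, 113 to 360 CPM after OIR, and 137 to 426 CPM with treatment. None of the 15 passed in OIR compared with control mice, where 9 were higher and 6 lower with a median log2 fold change of 0.05. OIR mouse 6 had the lowest summed marker level of all 9 mice, at 113 CPM, and the highest level of *Kdr*, at 8.13, and of *Flt1*, at 6.84. Treated OIR mouse 2, with 15.8% of its counts in crystallin genes, had the next lowest marker level, at 137 CPM, and the highest *Kdr* of its group, at 7.69. Its *Flt1*, at 6.42, lay between those of treated OIR mice 5 and 10, at 6.53 and 6.18. Where 0.941% of all genes passed, 1 of 10 Müller glial markers did, *Slc1a3*. VEGFR2 has also been described in this cell type. Of the 10 markers, 7 were higher and 3 lower in OIR mice, with a median of 0.41. Summed, these spanned 4451 to 5939 CPM in controls, 5670 to 6423 CPM after OIR, and 3687 to 5500 CPM with treatment, and none was at 0. The lowest of these sums was that of treated OIR mouse 2, at 3687 CPM, and the highest that of OIR mouse 6, at 6423 CPM. The part of cell composition in the receptor changes was not tested.

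**Figure D3:**
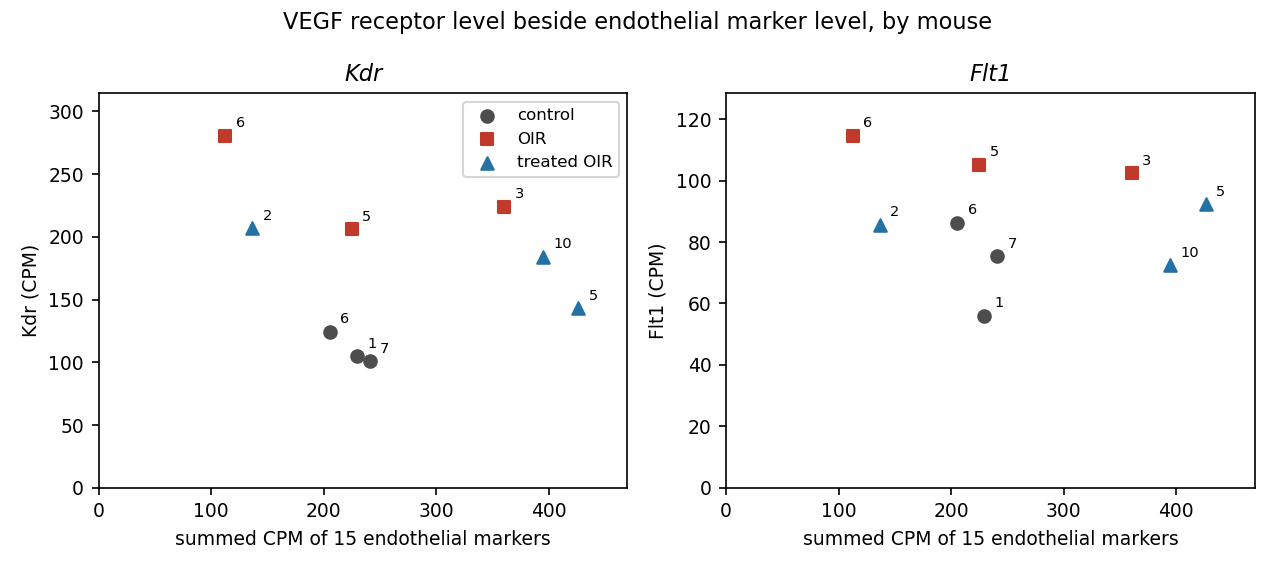
CPM of *Kdr* (left) and *Flt1* (right) plotted against the summed CPM of 15 endothelial markers, with 1 point per mouse marked by its label number. OIR mouse 6 has the lowest marker sum, 113 CPM, and the highest level of both receptors.

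Neither neuropilin passed. *Nrp1* (ENSMUSG00000025810, chromosome 8, 128358604 to 128503363), a coreceptor for VEGF-A on endothelial cells, had a log2 CPM of 3.97, 3.87, and 3.54 in controls, and 4.26, 3.96, and 4.50 after OIR, with OIR mouse 5 just below the highest control. The difference was 0.45 (SE = 0.19, adjusted p = 0.184 by edgeR). An annotated microRNA gene, *Mir1903*, overlaps an exon of *Nrp1* on the same strand, so its counts could include it. *Nrp2* (ENSMUSG00000025969, chromosome 1, 62703285 to 62818695), which pairs with VEGFR3 and binds VEGF-C, had 5.08, 4.50, and 4.24 in controls, and 4.26, 4.29, and 4.38 after OIR. Its difference of -0.34 (SE = 0.28, adjusted p = 0.484 by edgeR) was -0.07 without control mouse 1.

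Within-mouse differences between paired genes were then compared in 9 tests. These depend on the scaling of libraries only through the small count added before logs were taken. *Vegfa* minus *Vegfb* in log2 CPM was 0.69, 0.77, and 0.35 in controls, 2.43, 2.35, and 2.36 after OIR, and 3.04, 2.38, and 2.30 with treatment. The balance of the 2 ligands differed from control by 1.78 in OIR (3.43-fold) and by 1.97 in treated OIR mice, without overlap. Each had p = 0.1 in a two-sided exact permutation test, the smallest that 3 mice against 3 allow, and 0.18 after adjustment over the 9 tests. This outcome was fixed by the single genes, since *Vegfa* was higher and *Vegfb* lower without overlap in both comparisons. It is therefore not a further result. *Flt1* minus *Kdr* went from -0.62 ± 0.26 in control to -1.13 ± 0.16 in OIR mice (SD, n = 3 each, exact permutation p = 0.1, adjusted 0.18), and every OIR mouse was below every control mouse. *Nrp1* minus *Nrp2* went from -0.81 ± 0.26 to -0.07 ± 0.23 (SD, n = 3 each, exact permutation p = 0.1, adjusted 0.18), again without overlap. Between treated OIR and OIR mice the 3 differences moved by 0.19, 0.05, and -0.09, within the spread of mice (exact permutation p of 0.8, 0.9, and 0.8).

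The second question was how the same genes stood in treated OIR mice, compared with the same 3 control mice. None of the 9 passed in edgeR, where 0.0228% of all genes did, 0.0114% upward and 0.0114% downward, and 0.0171% with the added limit on fold change. An unadjusted p below 0.05 was found for 4 of the 9 and for 18.6% of all genes. The median log2 fold change was 0.24 over the 9 genes and 0.01 over all genes. DESeq2 on the 2 groups called 3 of the 9, *Vegfa*, *Vegfb*, and *Kdr*, where it called 2.21% of all genes, and limma-voom called *Vegfa* and *Vegfb*, with 5.28% of all genes. The log2 CPM of *Vegfa* was 8.85, 7.98, and 7.96 in treated OIR mice 2, 5, and 10, all above the controls, a difference of 1.41 (SE = 0.22, adjusted p = 0.102 by edgeR). Without mouse 2 it was 1.06 and passed (adjusted p = 0.0136 by edgeR). The share of all genes that passed in that fit is not given here, so this pass is not set against it. *Vegfb* had 5.81, 5.60, and 5.66, all below the controls, a difference of -0.63 (SE = 0.11, adjusted p = 0.102 by edgeR). *Kdr* had 7.69, 7.16, and 7.53, all above the controls, a difference of 0.69 (SE = 0.17, adjusted p = 0.126 by edgeR). These 3 were the genes of the 9 whose values did not overlap, 2 higher and 1 lower, compared with 25% of all genes, 12.8% higher and 12.2% lower.

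*Pgf* differed most among treated OIR mice, with a log2 CPM of 5.07, 1.32, and 1.85. Mouse 2 had 529 counts, more than any other mouse, while mice 5 and 10, with 39 and 68 counts, were within the range of the controls. The difference from control was 2.30 (SE = 0.91, adjusted p = 0.228 by edgeR) with this mouse and 0.16 without it. The summed level of 18 lens markers was 179104 CPM in mouse 2, compared with 17.5 and 1078 CPM in mice 10 and 5, 122 to 1694 CPM in OIR, and 26.2 to 440 CPM in control mice. *Pgf* was thus highest in the library richest in lens RNA, and the part of lens tissue in its value was not tested. *Vegfc* had 0.81, 1.66, and 1.80, with mouse 2 the lowest of all 9 mice. *Flt1* had 6.42, 6.53, and 6.18, *Flt4* 3.12, 3.58, and 3.73, *Nrp1* 3.91, 3.98, and 4.24, and *Nrp2* 3.71, 4.17, and 4.72, and each of these 4 overlapped the controls.

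The third question was how treated OIR retina differed from OIR retina. Compared with OIR mice, no gene of the 9 passed in treated OIR mice in edgeR, DESeq2, or limma-voom, and the share of all genes that passed was 0% in edgeR, 0.431% in DESeq2 on the 2 groups, and 0.0057% in limma-voom. Of the 9, 2 had an unadjusted p below 0.05 in edgeR, *Kdr* and *Flt1*, as did 4.69% of all genes, and both were lower in treated mice. The median log2 fold change was 0.07 over the 9 genes and 0.01 over all genes. *Kdr* differed by -0.41 (95% interval -0.79 to -0.03, adjusted p = 1.0 by edgeR), and treated mouse 2, at 7.69, stood level with the lowest OIR mouse. The difference of *Kdr* was -0.27 without OIR mouse 6 and -0.51 without treated mouse 2. *Flt1* differed by -0.36 (95% interval -0.72 to -0.01, adjusted p = 1.0 by edgeR), and all 3 treated mice were below all 3 OIR mice. *Vegfa* was higher in each treated mouse than in each OIR mouse, by 0.47 (95% interval -0.02 to 0.97), and by 0.14 without mouse 2. *Vegfb* was also higher in each treated mouse, by 0.22 (95% interval -0.03 to 0.46), a difference in the direction of the controls. *Flt1*, *Vegfa*, and *Vegfb* were the 3 genes without overlap, compared with 9.13% of all genes, 3.74% higher and 5.39% lower.

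For the other 5 genes the 95% intervals included 0. The interval was -0.90 to 1.17 for *Vegfc*, -0.37 to 0.51 for *Flt4*, -0.63 to 0.21 for *Nrp1*, and -0.67 to 0.58 for *Nrp2*. For *Pgf* the log2 fold change was 1.19 (95% interval -0.77 to 3.15) with mouse 2 and -0.93 without it, so that 1 mouse set its direction. None of the 15 endothelial markers passed, and all 15 log2 fold changes were above 0, with a median of 0.50 (0.91 without mouse 2). None of the 10 Müller glial markers passed, and all 10 log2 fold changes were below 0, with a median of -0.37 (8 of 10, with a median of -0.38, without mouse 2). The differences of *Kdr* and *Flt1* had the opposite sign to those of the endothelial markers. The part of cell composition in them was not tested.

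**Figure D4:**
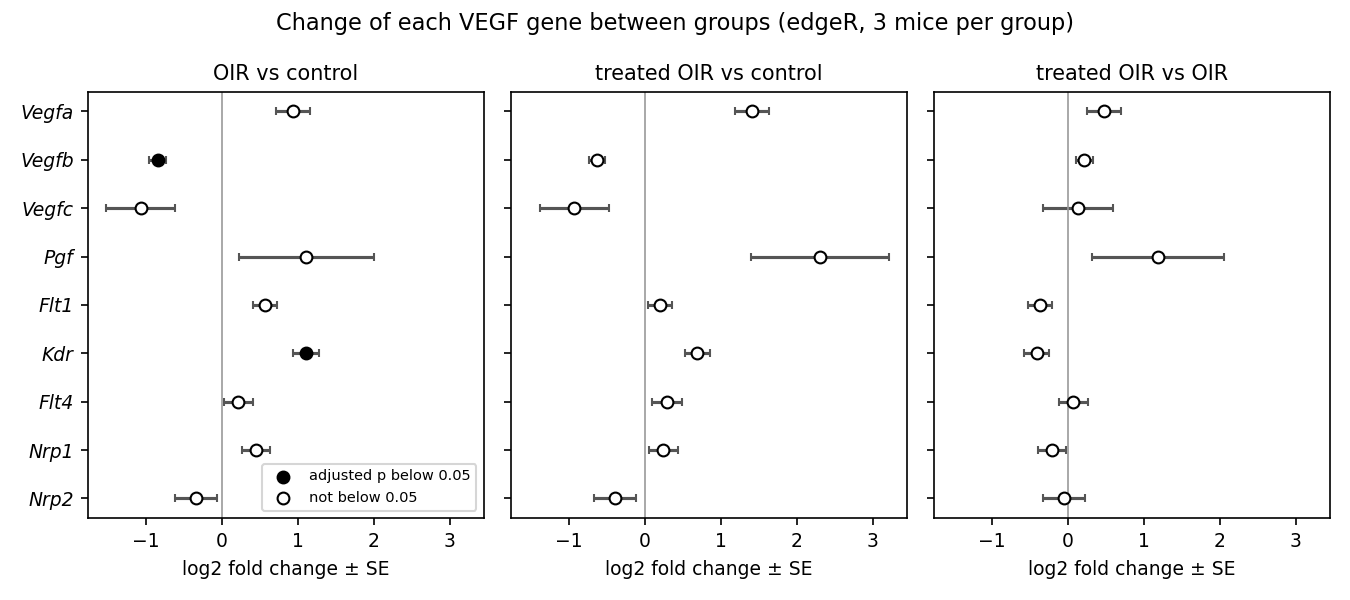
Log2 fold change with its standard error for the 9 genes in the 3 comparisons (edgeR, 3 mice per group). Filled points, at an adjusted p below 0.05, are *Vegfb* at -0.85 and *Kdr* at 1.10 in OIR compared with control mice, and the error of *Pgf* is the widest in all 3.

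Other genes of the pathway were described as lists. Among 22 tested partners, which include VEGF-C processing factors, semaphorins, plexins, and integrins, 1 passed upward in OIR compared with control mice and 0 downward, and the median log2 fold change was -0.06. The 1 gene was *Adamts3*, which encodes a protease that processes VEGF-C, with a log2 CPM of 4.02 ± 0.32 in control and 5.02 ± 0.24 in OIR mice (SD, n = 3 each) and a log2 fold change of 0.997 (SE = 0.18, adjusted p = 0.0485 by edgeR). Without treated OIR mouse 2, where 23 partners were tested, those that passed were 3 upward (*Adamts3*, *Plxna2*, *Plxnd1*) and 2 downward (*Plxna1*, *Sema3c*). Over 20 alternatives the number of partners that passed ranged from 0 to 8. Among 31 intracellular relays of VEGF receptors, 0 passed upward and 1 downward, *Hras*, a small GTPase of the MAP kinase cascade, at -0.62 (SE = 0.11, adjusted p = 0.0456 by edgeR), and the median was 0.04. With that mouse left out, 6 relays passed, 3 in each direction, again with a range of 0 to 8 over 20 alternatives. The fit without that mouse also passed many more genes of the whole table, a number given below. DESeq2 on the 2 groups called 15.6% and limma-voom 13.1% of all genes, compared with 0.941% in the main fit. In treated OIR mice no partner or relay passed in either comparison in edgeR. Against control the lowest p was that of *Plxnd1*, a semaphorin receptor, at 1.19 (SE = 0.25, adjusted p = 0.108 by edgeR), and *Yes1*, a Src family kinase, at 0.72 (SE = 0.13, adjusted p = 0.102 by edgeR). Against OIR it was that of *Ctgf*, a matricellular protein, at -0.95 (SE = 0.30, adjusted p = 0.984 by edgeR), and *Shb*, an adaptor of VEGFR2, at 0.75 (SE = 0.24, adjusted p = 0.990 by edgeR).

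A further list held genes known to be induced by VEGF in endothelial cells. In OIR compared with control mice, 53.5% of all genes were higher and 0.941% passed. Of 16 genes tested from the list, 15 were above control in OIR mice, with a median log2 fold change of 0.69, and 2 passed. These were *Apln*, which encodes a tip-cell peptide, at 2.91 (SE = 0.41, adjusted p = 0.0407 by edgeR), and *Egr3*, which encodes a transcription factor, at 2.04 (SE = 0.34, adjusted p = 0.0411 by edgeR). In treated OIR mice 15 of 16 were higher than in control mice, with a median of 0.87 (13 of 16, with a median of 0.80, without mouse 2). Of these 1 passed, *Apln*, at 3.79 (SE = 0.42, adjusted p = 0.0490 by edgeR). Among all genes, 51.4% were higher than in control mice and 0.0228% passed. Compared with OIR mice, 11 of the 16 were higher, with a median of 0.26 (9 of 16, with a median of 0.07, without mouse 2), as were 51.3% of all genes. In that comparison *Egr3* had the lowest unadjusted p of this list and differed by -1.22 (SE = 0.33, adjusted p = 0.984 by edgeR), which did not pass. *Egr3* is also induced by activity in neurons. The paper counts *Angpt2*, a member of this list, among genes regulated by HIFs, and the part of VEGF in these values was not tested. Over 20 alternatives the number that passed ranged from 0 to 5 in each of the comparisons with control. In these 2 comparisons DESeq2 on the 2 groups called 15.6% and 2.21% of all genes, and limma-voom 13.1% and 5.28%.

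Of 24 genes known to be induced by hypoxia, a list that leaves out *Vegfa* itself, 23 were higher in OIR than in control mice. Their median log2 fold change was 0.27, smaller than that of *Vegfa* at 0.94, and 2 passed, *Adm*, encoding a vasodilator peptide, at 2.84 (SE = 0.53, adjusted p = 0.0496 by edgeR), and *Ndufa4l2*, encoding a mitochondrial protein, at 2.13 (SE = 0.35, adjusted p = 0.0408 by edgeR). When treated OIR mouse 2 was left out, these 2 passed together with *Egln3* and *Pfkfb3*, and the number ranged from 0 to 5 over 20 alternatives. Many more genes of the whole table passed as well in the fit without that mouse. In the main fit 53.5% of all genes were higher in OIR than in control mice, and 0.941% passed. In treated OIR mice 23 of 24 were again higher than in control mice, with a median of 0.83, and 22 of 24 were higher than in OIR mice, with a median of 0.39. These values rested in part on mouse 2, since without it 20 of 24 were higher than in control mice, with a median of 0.43, and 15 of 24 were higher than in OIR mice, at a median of 0.04. In edgeR no gene of the 24 passed in either comparison, where 16 and 3 had an unadjusted p below 0.05, as did 18.6% and 4.69% of all genes. Without mouse 2, 1 gene passed against control, *Ndufa4l2*, and the unadjusted counts were 11 and 1, where the shares of all genes are not given here. The number that passed against control ranged from 0 to 7 over 20 alternatives, and against OIR it was 0 in each. The lowest p belonged to *Ndufa4l2* against control, at 2.93 (SE = 0.36, adjusted p = 0.0586 by edgeR), and to *Kdm3a*, a histone demethylase gene, against OIR, at 0.36 (SE = 0.12, adjusted p = 0.990 by edgeR). The mean log2 CPM of the list was 6.98 in treated OIR mouse 2, compared with 5.63 to 6.09 in OIR mice and 5.89 and 5.72 in treated OIR mice 5 and 10. These lists were chosen with earlier results of these data known, so that their counts are descriptions, and the genes given without mouse 2 were named after their values were seen.

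**Figure D5:**
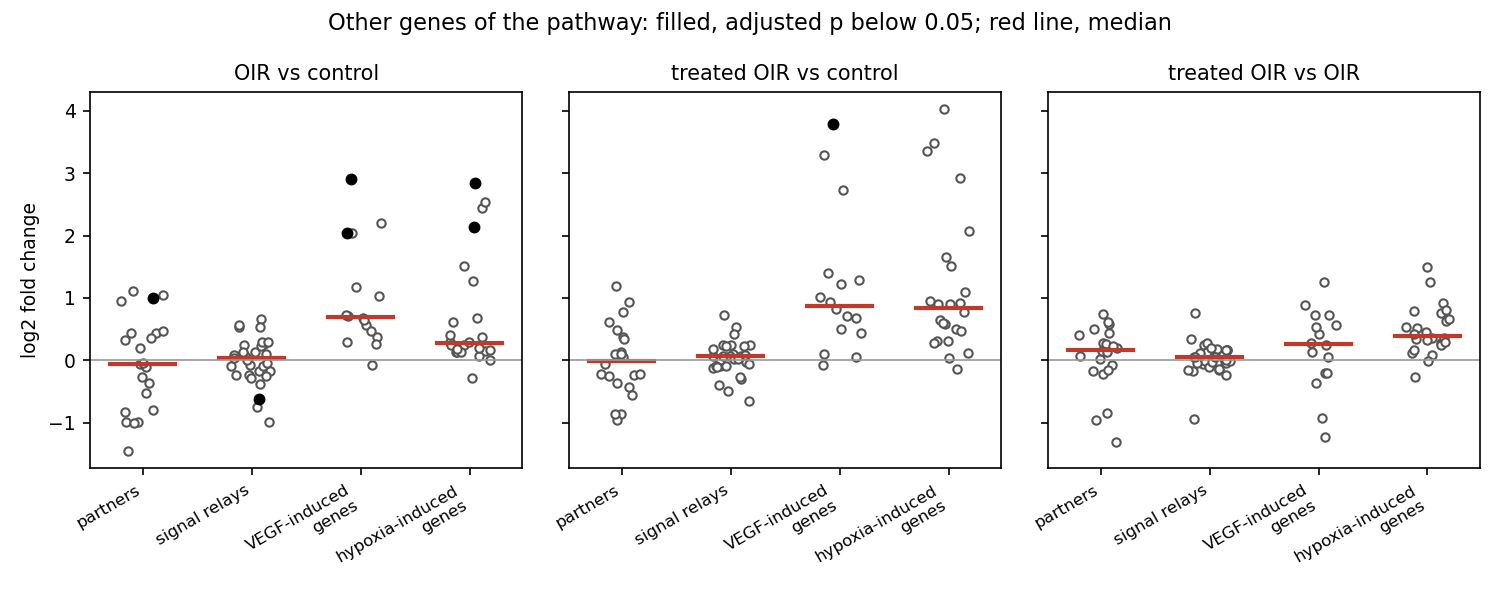
Log2 fold changes of genes in 4 lists of the VEGF pathway and hypoxia response in the 3 comparisons, with 1 point per gene, filled where the adjusted p was below 0.05, and red lines at list medians. Medians of VEGF-induced and hypoxia-induced genes lie above 0 in all 3 panels, at 0.69 and 0.27 in the first. In the third they are 0.26 and 0.39, and 0.07 and 0.04 without treated OIR mouse 2.

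The genes whose log2 CPM ran most nearly parallel to that of *Vegfa* and *Kdr* over the 9 mice were found among 13977 tested genes with a mean log2 CPM of at least 1. For *Vegfa* these were *Setd5* (Pearson r = 0.99), *Rnf19a* (0.98), CT010496.1 (0.98), *Xpo1* (0.97), and *Ndufa4l2* (0.97). *Setd5* spanned 6.88 to 6.96 in controls, 7.14 to 7.21 after OIR, and 7.16 to 7.44 with treatment, where mouse 2 was highest, as for *Vegfa*. For *Kdr* they were *Tpr* (0.98), *Tgfbr1* (0.98), *Lrch3* (0.98), the glial glutamate transporter gene *Slc1a3* (0.98), and the caveolin gene *Cav1* (0.98). *Slc1a3* had 7.29, 7.48, and 7.24 in controls, 8.18, 8.03, and 8.61 after OIR, and 8.16, 7.86, and 7.86 with treatment, and OIR mouse 6 was highest, as for *Kdr*. None of the 15 endothelial markers was among these 5, which says nothing on endothelial content, because only 5 of 13977 genes are named. Without treated OIR mouse 2, r for these 10 genes was between 0.96 and 0.99. The values of a mouse share its depth and base composition, and the coefficients are given as descriptions of 9 mice in 3 groups.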

How the data were processed

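RNA was isolated from retinas of 9 mice and sequenced by the authors, who deposited raw, whole-number counts for each gene and mouse in 1 table that also gives gene length. The submitters' processing notes name CASAVA and HISAT. The counting tool, annotation, strand setting, and genome build are not given in the sources used here. GENCODE M21 places 98.3% of 54409 common identifiers where the table does, so coordinates are on GRCm38. Replicates are separate mice.

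From these counts, group means over all 9 mice were estimated by the quasi-likelihood test of edgeR 4.0.16 (R 4.3.3), after TMM scaling and the default filter, which left 17540 genes. P-values were adjusted by Benjamini-Hochberg over all of these. Standard errors were taken as the log2 fold change over the square root of F. Log2 CPM used a prior count of 2. Alternatives were DESeq2 1.42.0, limma 3.58.1 (voom with sample weights), edgeR on 2 groups, other scalings and filters, a call rule with an absolute log2 fold change above 1, crystallin genes left out, and each mouse left out. Sex as a covariate was added after seeing the data, with a mouse taken as female above 10 CPM of *Xist*. The fits were also run on simulated counts as a check of the code. These did not model the lens RNA of treated OIR mouse 2. G and C content was taken from the longest GENCODE M21 transcript of each gene, and promoters are from RefSeq. Genes named from lists are up to 3 that rose and 3 that fell by size among those that passed, or, if none passed, the gene of lowest p. For *Vegfa* and *Kdr* the 5 genes of highest Pearson r are named. Marker genes and *Vegfd* are named as examples. The 9 genes and the lists were chosen with earlier results of these data known.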

Additional observations from a re-analysis of the deposited data

How the results depend on the processing

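In OIR compared with control mice, the number of the 9 genes called was 2, and it was 4 with DESeq2 on all 9 mice and on the 2 groups, 1 with the added limit on fold change, and 0 with sex as a covariate, chosen after seeing the data. With single mice left out it ranged from 0 to 4. It was 0 in 7 of these 9 fits, in which no gene of the whole table passed, and 4 without treated OIR mouse 2, where 2272 genes passed. Over all genes, 165 passed, and from 0 to 2683 in the alternatives. In treated OIR compared with control mice the number was 0, and it was 3 with DESeq2 on all 9 mice and on the 2 groups, 2 with limma-voom, and 1 without a filter, and it ranged from 0 to 1 with single mice left out. It remained 0 between treated OIR and OIR mice in all 20 alternatives. With single mice left out, the log2 fold change in OIR mice stayed between 0.97 and 1.20 for *Kdr* and between -0.91 and -0.75 for *Vegfb*.

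Among the 9 genes and 3 within-mouse differences, reversals were seen in treated OIR against OIR and in no other comparison. By limma-voom *Pgf* was at -0.73 and *Nrp2* at 0.0069. With single mice left out, *Pgf* ranged from -0.93 to 1.68, *Nrp2* from -0.35 to 0.19, *Vegfc* from -0.064 to 0.42, and *Flt4* from -0.061 to 0.26, and the within-mouse differences from -0.041 to 0.33 for *Vegfa* minus *Vegfb*, from -0.18 to 0.18 for *Flt1* minus *Kdr*, and from -0.27 to 0.073 for *Nrp1* minus *Nrp2*. The cause was not tested. No paired analysis was possible because any 2 groups share at most 1 replicate number. *Pgf* and *Vegfc* had under 100 counts in most mice.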

Other observations

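Lists of other cell types were not part of the comparisons above and are given as values. Between treated OIR and OIR mice, 8 of 8 microglial markers had lower values, with a median log2 fold change of -1.24. Without treated OIR mouse 2, 7 were lower and 1 higher, with a median of -1.13. With all 9 mice none passed in edgeR, while 6 had an unadjusted p below 0.05, as did 4.69% of all genes. Their summed level was 204 to 421 CPM in OIR and 108 to 144 CPM in treated OIR mice. In control mice it was 94.6 to 426 CPM, a range that covers both. Of 10 pericyte markers, 9 had higher values in treated OIR than OIR retinas, with a median of 0.52, and none passed in edgeR, where 1 had an unadjusted p below 0.05. Without treated OIR mouse 2 it was 8 of 10, with a median of 0.78, and 4 had an unadjusted p below 0.05. The share of all genes with such a p in that fit is not given here, so this count is not set against it.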
